A study of Mus musculus with 15 samples.

Results

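The genes described here are the enzymes of phase II conjugation: the glutathione S-transferases (GST and the membrane-bound MGST), the UDP-glucuronosyltransferases (UGT) and the cytosolic sulfotransferases (SULT). They were taken by gene symbol among protein-coding genes, which gave 59 genes, and kept where at least 10 raw counts were found in at least 3 of the 15 libraries. The count rule left 48 genes of the 26839 in the deposited tables, of which 15934 met the same count rule: 20 GST, 2 MGST, 18 UGT and 8 SULT genes. The 11 genes that did not meet it were Gsto2, Mgst2, Sult2a1, Sult2a2, Sult2b1, Sult3a1, Sult3a2, Sult4a1, Sult6b1, Ugt1a8 and Ugt1a10.

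Liver RNA from male C57BL/6J mice was sequenced in 15 libraries, in 5 groups of 3, after 16 weeks on diet. The NASH Activin A livers had received AAV8-TBG-Activin A, an adeno-associated virus in which a liver-specific promoter drives Activin A, a secreted factor of the TGF-beta family. The NASH Gpnmb hairpin livers had received AAV8-H1-shRNA against Gpnmb, a membrane glycoprotein of macrophages and other cells, and the NASH scramble livers AAV8-H1-shRNA with a scramble sequence; the H1 promoter is not restricted to hepatocytes. The NASH GFP livers had received AAV8-TBG-GFP. These 4 groups ate the FPC NASH diet, made to produce non-alcoholic steatohepatitis, and drank sugar water. The chow GFP livers had received AAV8-TBG-GFP on standard chow. Every group thus carried an AAV8 vector. Whether each library is a separate animal is not in the labels. The p-values therefore reflect the spread among the 3 libraries of a group, which may be technical.

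Conjugation makes drugs, hormones, bile acids, bilirubin and the products of lipid peroxidation more water-soluble, so that they can be exported into bile or blood. GST enzymes attach glutathione to electrophiles, UGT enzymes attach glucuronic acid from UDP-glucuronic acid in the endoplasmic reticulum, and SULT enzymes attach sulfate from the donor PAPS in the cytosol. Hepatocytes are the main site of all 3 reactions.

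The libraries held between 15276879 and 23467867 counts, and the 48 genes took between 1.03% and 1.53% of them. Levels are given as CPM, counts scaled to a common library total, after scaling of all 15 libraries, and levels of different genes are compared only as CPM per kb of gene length. Gpnmb ranged from 1.27 to 3.32 CPM under its hairpin and from 25.9 to 35.8 CPM in scramble livers. It ranged from 2.96 to 5.68 CPM in Activin A livers and from 24.9 to 40.8 CPM in NASH GFP livers, and was at most 0.482 CPM in chow GFP livers. Inhba, which encodes the subunit of Activin A, ranged from 23.9 to 25.7 CPM in Activin A livers and from 7.92 to 8.12 CPM in NASH GFP livers. It ranged from 8.71 to 12.1 CPM under the hairpin, from 4.71 to 5.94 CPM in scramble livers and from 9.44 to 12.7 CPM in chow GFP livers.

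One library stood apart among these genes. Replicate 3 of the NASH GFP group lay at least 1.5-fold below both other NASH GFP libraries in 10 of the 44 members with a mean of at least 1 CPM (22.7%, against 5.81% of 13169 genes at that level). The 10 were Gsta1, Gsta2, Gsta3, Gsta4, Gstm1, Gstm2, Gstm3, Gstm4, Gstp3 and Mgst3. The same library lay above both others in Sult2a8 and Ugt1a7c. Replicates 1 and 2 lay below both others in 1 member each. Because NASH GFP livers entered the diet comparison, the Activin A comparison and the comparison of scramble with GFP, results that rest on this library are given with and without it.

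Markers of other cell types moved with the groups. The 7 macrophage markers summed to between 524 and 614 CPM in NASH GFP livers and to between 183 and 201 CPM in chow GFP livers, with all 7 called higher. They summed to between 230 and 278 CPM under Activin A, where 6 of 7 were called lower than in NASH GFP livers. They summed to between 256 and 347 CPM under the Gpnmb hairpin and to between 496 and 578 CPM in scramble livers, with 6 of 7 called lower. The 7 hepatocyte markers summed to between 53391 and 64515 CPM in NASH GFP livers and to between 77922 and 110092 CPM in chow GFP livers, with 3 called lower (Serpina1c, Cps1 and Ttr). They summed to between 65710 and 71560.4 CPM under the hairpin and to between 54555 and 65318 CPM in scramble livers, with 3 called higher (Hnf4a, Cps1 and Serpina1c). Under Activin A they summed to between 69145 and 70902 CPM, with 1 called higher (Ttr). The lowest group mean among these 14 markers was 0.718 CPM, of Trem2 in chow GFP livers. Cholangiocyte markers were called higher in 4 of 6 on the diet, lower in 2 of 6 under Activin A and in 0 under the hairpin. Stellate cell and fibroblast markers were called higher in 6 of 7 on the diet, lower in 4 of 7 under Activin A and lower in 6 of 7 under the hairpin. Of 6 endothelial markers, 3 were higher on the diet, 1 was higher and 1 lower under Activin A, and 3 were lower under the hairpin. Markers of T and NK cells, B and plasma cells and neutrophils each summed to at most 17.6 CPM in any library. Of 3 erythroid markers, 2 were higher and 1 lower on the diet, 0 were called under Activin A, and 1 was higher and 2 lower under the hairpin, with sums of 89.7 to 109.8 CPM under the hairpin and 109 to 159 CPM in scramble livers. Of the markers of adjacent tissues, 1 was higher and 1 lower of 2 tested on the diet, and 0 were called under Activin A or the hairpin. In bulk tissue, fewer cells of a type and less RNA per cell cannot be told apart, and the part of cell composition in the results below was not tested.

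Reads can be shared between these genes, since several are near copies. In the GENCODE M21 transcripts, 17 of the 48 members shared at least 10% of their 50-base stretches with another gene and 17 shared none. The 7 Ugt1a genes, which splice their own first exon to common later exons on chromosome 1, shared between 54.2% and 96%. Gstp1 shared 51.0% with Gstp2, and Gsta1 shared 82.9% with the predicted gene Gm3776. Ugt2b5 shared 41.7%, Ugt2b38 37.4% and Ugt2b37 18.3% with other genes, mostly among themselves. Gsta2 shared 47.4% and Gstm3 28.8%. The handling of reads in shared stretches is not stated in the labels or headers, so values of these genes are uncertain in how they divide between the copies. In addition, 13 members overlapped a gene on the opposite strand, and the strand setting of the counting is not given either.

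In NASH GFP livers the highest mean level per length among the 48 genes was that of Mgst1, a membrane-bound transferase and peroxidase, at 1502 ± 131 CPM per kb (mean ± SD, n = 3). The mu-class Gstm1 followed with 1278 ± 513 CPM per kb, and Gstp1, a pi-class transferase that in mouse is high in male liver, had 529.5 ± 36.7 CPM per kb. Without NASH GFP replicate 3 the means were 1566 CPM per kb for Mgst1 and 1571 CPM per kb for Gstm1, so they did not differ beyond their spread and their order rests on that library. In chow GFP livers Gstp1 came first, at 2204 ± 397 CPM per kb, followed by Mgst1 at 1548 ± 306 CPM per kb and Gstm1 at 917 ± 254 CPM per kb. Ugt2b5 stood at 611 ± 151 CPM per kb. Ugt2b1 had 391.8 ± 19.0 CPM per kb, Gsta3 376 ± 96.5 CPM per kb, Ugt2b36 373 ± 70.8 CPM per kb and Sult2a8, a sulfotransferase of bile acids in mouse liver, 356 ± 25.9 CPM per kb, which did not differ beyond their spread. Next were Ugt2a3 at 164 ± 26.9 CPM per kb and Sult1a1, a sulfotransferase of phenols, at 157 ± 40.8 CPM per kb.

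All 48 genes together summed to 12217 ± 106 CPM in Activin A livers, 11389 ± 428 CPM in hairpin livers, 10675 ± 883 CPM in scramble livers, 11727 ± 1486 CPM in NASH GFP livers and 16119 ± 2346 CPM in chow GFP livers (mean ± SD, n = 3 each). The 8 SULT genes summed to 293 ± 28.1 CPM in Activin A livers, 1061 ± 212 CPM in hairpin livers, 751 ± 176 CPM in scramble livers, 675 ± 254 CPM in NASH GFP livers and 1584 ± 164 CPM in chow GFP livers. With library size alone as the scaling, the sum of all 48 was 12384 CPM in NASH GFP livers and 13881 CPM in chow GFP livers. The 7 Ugt1a genes summed to between 188 and 269 CPM in the 12 NASH libraries and to between 177 and 249 CPM in chow GFP livers.

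**Figure D1:**
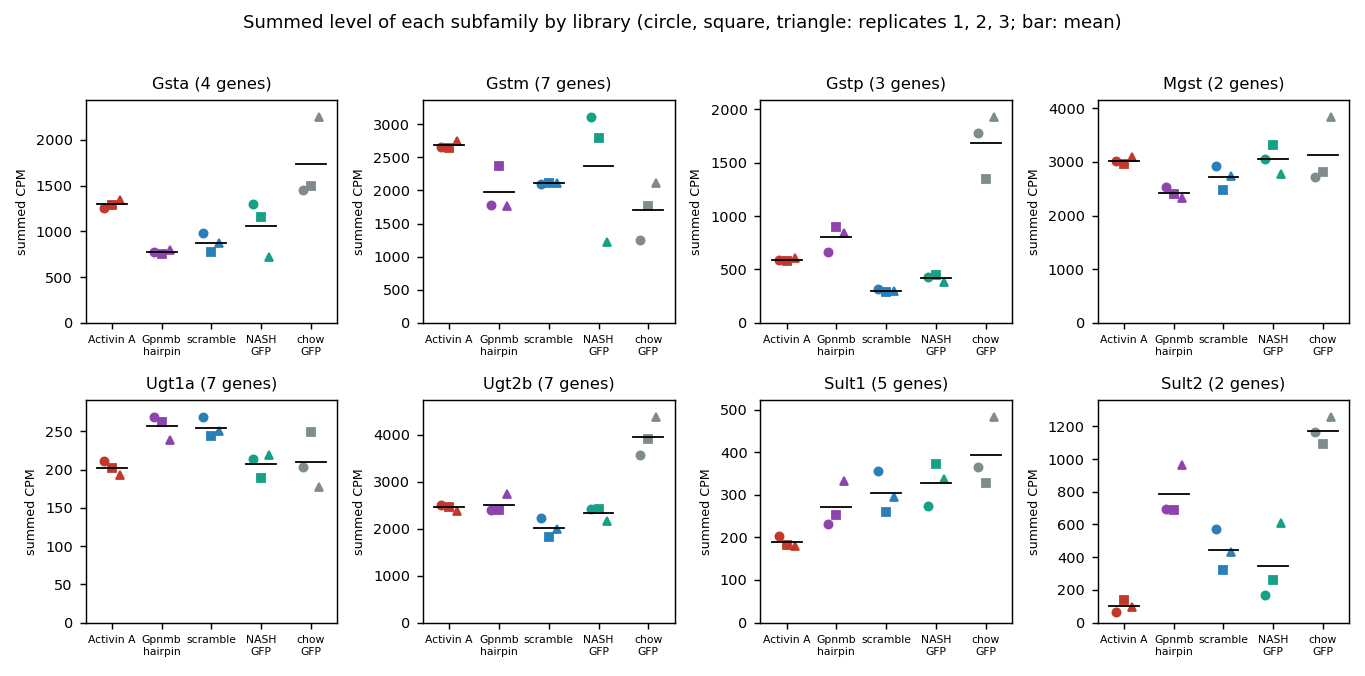
Summed CPM of 8 subfamilies in each of the 15 libraries, by group; circles, squares and triangles are replicates 1, 2 and 3 and the bar is the group mean, on an axis that starts at 0. The Gstp, Ugt2b and Sult2 sums were above every other library in the 3 chow GFP livers, and the Gsta and Gstm sums of NASH GFP replicate 3 (triangle) lay below those of the other NASH GFP libraries.

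The first comparison asked what the NASH diet did to conjugation genes, as NASH GFP against chow GFP. Of 46 members tested, 12 were lower and 2 were higher on the diet, at an adjusted p under 0.05 in edgeR's quasi-likelihood test with Benjamini-Hochberg adjustment over all genes. Of all 14388 genes tested, 5.82% were called lower and 11.2% higher (17.0% in all). The members' share called lower was 26.1% and their share called higher 4.35%. Their median log2 fold change was -0.26, against -0.01 over all genes tested. Sult1e1 and Ugt8a were too low to be tested. With library size alone as the scaling, the median of all genes moved to 0.24 and the members' calls to 4 higher and 9 lower. In 21 of 46 members (45.7%) the 3 NASH GFP libraries all lay below the 3 chow GFP libraries, as they did in 16.4% of all genes tested.

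Gstp1 (chr19:4035407-4037921, minus strand, GRCm38) had 402, 428 and 372 CPM in NASH GFP livers and 1765, 1331 and 1909 CPM in chow GFP livers. The groups did not overlap, and the level was 4.06-fold lower on the diet (log2 fold change ± SE -2.02 ± 0.19, adjusted p = 0.00015). Its neighbours were not called. Gstp2 had 3.30, 3.62 and 3.98 CPM in NASH GFP livers and 4.74, 4.38 and 6.62 CPM in chow GFP livers (adjusted p = 0.249), and Gstp3 had an adjusted p of 0.874.

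Sult5a1, a sulfotransferase whose substrates are poorly known, had the lowest p among the members. It had 2.68, 3.28 and 2.58 CPM in NASH GFP livers and 25.3, 18.7 and 16.7 CPM in chow GFP livers. It was thus low in all 3 diet libraries and 6.94-fold lower on the diet (log2 fold change -2.80 ± 0.23, adjusted p = 8.41e-05). Sult2a8 had 166, 259 and 607 CPM in NASH GFP livers, the third library standing apart, and 1163, 1088 and 1258 CPM in chow GFP livers. It fell by 1.73 on the log2 scale (SE 0.39, adjusted p = 0.0133), and by 2.43 without NASH GFP replicate 3 (SE 0.24, adjusted p = 0.000275). The other called SULT genes were Sult1b1, which conjugates thyroid hormones and phenols (log2 fold change -0.79 ± 0.17, adjusted p = 0.0121), and the rare Sult2a7 (-1.73 ± 0.53, adjusted p = 0.0486).

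The fall among the UGT genes lay in the Ugt2 cluster on chromosome 5, whose enzymes glucuronidate steroids and bile acids. Of its 8 measured genes 6 were lower: Ugt2a3, Ugt2b1, Ugt2b5, Ugt2b35, Ugt2b37 and Ugt2b38. Ugt2b1 (chr5:86916638-86926530, minus strand) had 321, 354 and 428 CPM in NASH GFP livers and 1036, 1036 and 951 CPM in chow GFP livers. Every diet library was below every chow library, and the level was 2.67-fold lower (log2 fold change -1.42 ± 0.17, adjusted p = 0.000555). Ugt2b38 had 18.3, 20.3 and 18.9 CPM in NASH GFP livers and 49.7, 98.2 and 52.2 CPM in chow GFP livers, without overlap (log2 fold change -1.76 ± 0.25, adjusted p = 0.0013). Ugt2a3 had 140.5, 170.0 and 166 CPM in NASH GFP livers and 294, 342 and 407 CPM in chow GFP livers (log2 fold change -1.09 ± 0.17, adjusted p = 0.00193). Ugt2b37, a gene of low level, had 2.81, 3.24 and 3.60 CPM in NASH GFP livers and 7.48, 13.2 and 11.6 CPM in chow GFP livers (log2 fold change -1.71 ± 0.26, adjusted p = 0.00196). Ugt2b5 (-0.71 ± 0.20) and Ugt2b35 (-0.54 ± 0.15) had smaller log2 fold changes, with adjusted p of 0.0342 and 0.0296. None of the 7 Ugt1a genes was called, including Ugt1a1, which conjugates bilirubin (log2 fold change 0.07 ± 0.15, adjusted p = 0.798).

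The 2 members that rose were an alpha-class and a membrane-bound transferase. Gsta1 had 26.3, 16.8 and 8.23 CPM in NASH GFP livers and 0.972, 2.72 and 3.31 CPM in chow GFP livers, 7.61-fold higher on the diet (log2 fold change 2.93 ± 0.48, adjusted p = 0.00255). Without NASH GFP replicate 3 the log2 fold change was 3.25 ± 0.40, adjusted p = 0.000887. Mgst3, a microsomal transferase and peroxidase, had 37.1, 34.8 and 15.9 CPM in NASH GFP livers and 5.89, 9.14 and 16.9 CPM in chow GFP livers. These libraries overlapped between the groups (log2 fold change 1.5 ± 0.39, adjusted p = 0.0237; 1.79 ± 0.34, adjusted p = 0.00696 without NASH GFP replicate 3). The remaining called member was Gstm7, a mu-class gene lower on the diet (log2 fold change -0.85 ± 0.17, adjusted p = 0.00784).

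Other mu-class genes depended on the library that stood apart. Gstm3 had 383, 282 and 31.5 CPM in NASH GFP livers and 55.1, 70.6 and 75.7 CPM in chow GFP livers, and was not called (log2 fold change 1.82 ± 0.63, adjusted p = 0.0759). When NASH GFP replicate 3 was left out it was called higher (2.34 ± 0.20, adjusted p = 0.000148), as were Gstm1 (0.81 ± 0.24, adjusted p = 0.0458) and Gstm2 (0.73 ± 0.17, adjusted p = 0.0183). The count of members called higher on the diet was then 5 (1472 of 14856 genes over all). It was 1 (Gsta1) without NASH GFP replicate 1 or 2 or without chow GFP replicate 1 or 2. The count called lower was 7 without NASH GFP replicate 2. Gsta1 and 7 lower members were called whichever library was left out: Gstm7, Gstp1, Sult5a1, Ugt2a3, Ugt2b1, Ugt2b37 and Ugt2b38. Mgst3 had an adjusted p of up to 0.0897 (without chow GFP replicate 1), Sult1b1 0.0628 and Ugt2b5 0.0894 (both without NASH GFP replicate 1), Sult2a8 0.0527 and Ugt2b35 0.146 (both without NASH GFP replicate 2) and Sult2a7 0.182 (without chow GFP replicate 3).

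**Figure D2:**
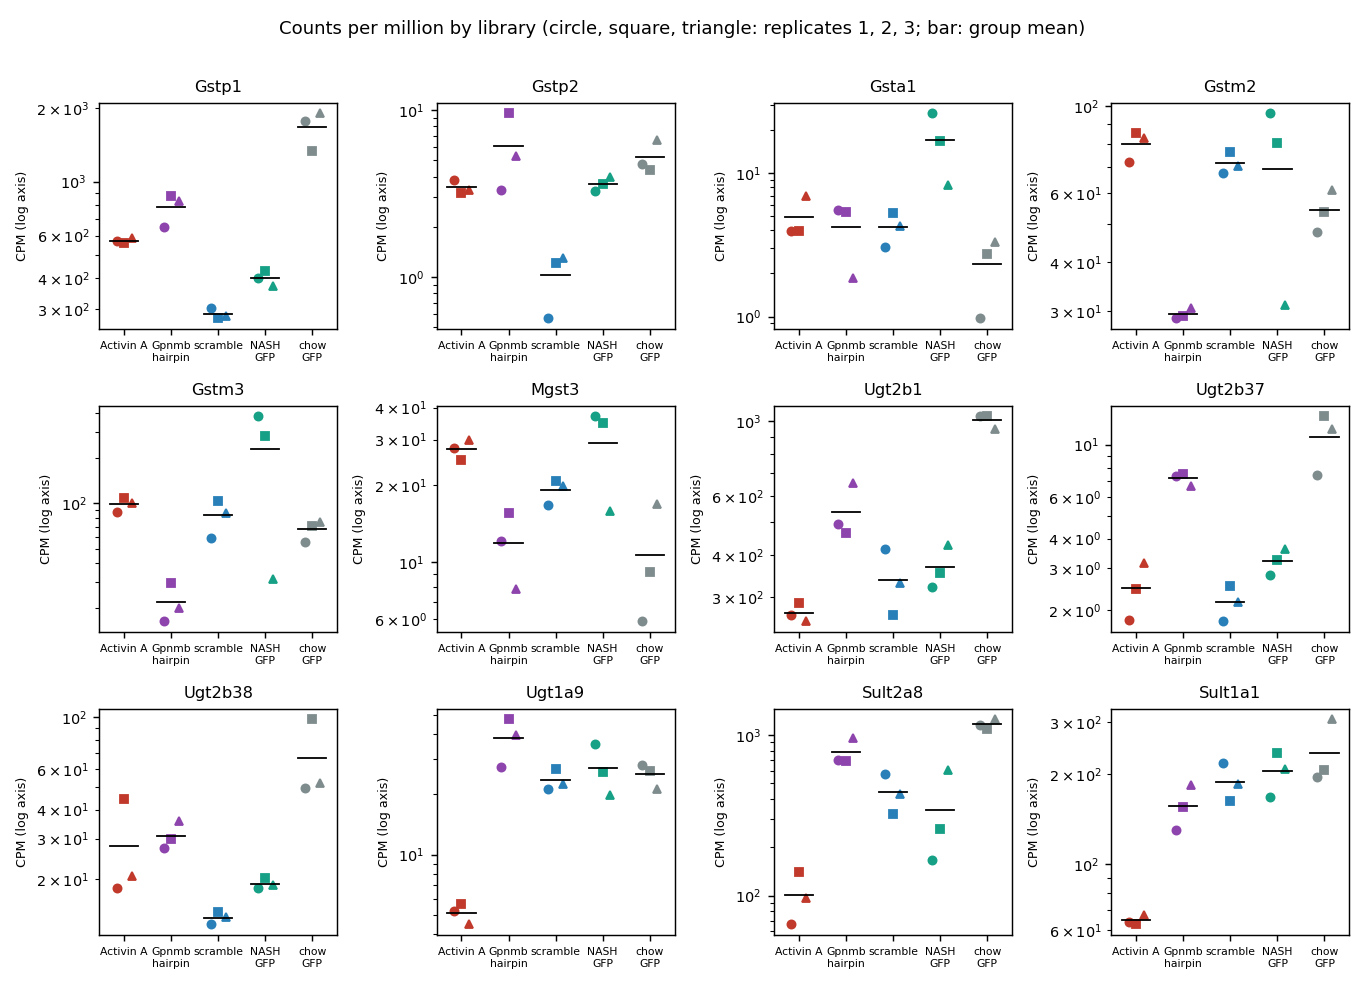
CPM of 12 members in each of the 15 libraries on a log axis, by group; circles, squares and triangles are replicates 1, 2 and 3 and the bar is the group mean. Gstp1, Ugt2b1 and Sult2a8 were highest in the 3 chow GFP livers, Gstm2 and Gstm3 were lowest in the 3 hairpin livers, and Ugt1a9 and Sult1a1 were lowest in the 3 Activin A livers.

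The Gpnmb hairpin was compared with the scramble hairpin, both on the NASH diet. Of 46 members tested, 11 were higher and 11 were lower under the hairpin. Of all 14845 genes tested, 12.2% were called higher and 12.0% lower (24.3% in all), against 23.9% of the members in each direction. The median log2 fold change was -0.04 for the members and 0.00 over all genes tested. With library size alone as the scaling, the median of all genes moved to -0.11 and the members' calls to 9 higher and 17 lower. The higher members were 2 pi-class genes, 5 Ugt2b genes, Ugt2a3, Ugt1a9, Sult2a8 and Gsta4. The lower members were mostly GST genes: all 3 theta-class genes, Gstm2, Gstm3, Gstk1, Gstp3 and Mgst3, with Ugt1a5, Ugt1a6a and Ugt2b34.

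Gstp1 had 650.2, 876 and 829 CPM under the Gpnmb hairpin and 302, 274 and 281 CPM in scramble livers. Every hairpin library was above every scramble library, and the level was 2.74-fold higher (log2 fold change 1.45 ± 0.11, adjusted p = 2.24e-05). Gstp2 (chr19:4040285-4042236, minus strand), the neighbouring pi-class gene, had 3.30, 9.60 and 5.28 CPM under the hairpin and 0.567, 1.21 and 1.29 CPM in scramble livers (log2 fold change 2.55 ± 0.42, adjusted p = 0.0019). Scramble livers were below all 12 other libraries in both genes, and NASH GFP livers had 3.30, 3.62 and 3.98 CPM of Gstp2, so the hairpin values of Gstp2 overlapped those of NASH GFP livers. Gstp1 under the hairpin was also above the NASH GFP livers (402, 428 and 372 CPM) and below the chow GFP livers.

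Ugt2b38 had 27.3, 29.8 and 35.7 CPM under the hairpin and 12.8, 14.5 and 13.7 CPM in scramble livers, 2.25-fold higher without overlap (log2 fold change 1.17 ± 0.11, adjusted p = 0.000109). Ugt2b37 had 7.34, 7.54 and 6.70 CPM under the hairpin and 1.79, 2.52 and 2.16 CPM in scramble livers (log2 fold change 1.73 ± 0.20, adjusted p = 0.000258). Both were high in all 3 hairpin libraries. Their transcripts share stretches with Ugt2b5 (34.1% of Ugt2b38 and 15.2% of Ugt2b37), which had 647, 690.0 and 772 CPM under the hairpin and 559, 455 and 497 CPM in scramble livers, and the part of shared reads in their values was not tested. In NASH GFP livers Ugt2b38 had 18.3, 20.3 and 18.9 CPM and Ugt2b37 2.81, 3.24 and 3.60 CPM, below every hairpin library. Smaller log2 fold changes were found for Ugt2b1 (log2 fold change 0.67 ± 0.16, adjusted p = 0.0126), Ugt2b5 (0.48 ± 0.10, adjusted p = 0.00522), Ugt2b35 (0.43 ± 0.07, adjusted p = 0.00129) and Ugt2a3 (0.40 ± 0.13, adjusted p = 0.0437). Scramble livers were below all 12 other libraries in Ugt2b5 and Ugt2b38. The hairpin values of Ugt2b5 and Ugt2a3 overlapped those of NASH GFP livers, and those of Ugt2b1 and Ugt2b35 lay above every NASH GFP library. Within the same cluster Ugt2b34 was lower (-0.24 ± 0.08, adjusted p = 0.0477). Sult2a8 had 696, 688 and 965 CPM under the hairpin and 571, 321 and 431 CPM in scramble livers (log2 fold change 0.82 ± 0.19, adjusted p = 0.0102). It did not overlap between the groups. Ugt1a9, which glucuronidates phenols and fatty acids, was higher (0.70 ± 0.17, adjusted p = 0.013), as was Gsta4, which conjugates the lipid peroxidation product 4-hydroxynonenal (0.33 ± 0.11, adjusted p = 0.0448). Ugt1a9 ranged from 27.6 to 47.7 CPM under the hairpin and from 19.9 to 35.9 CPM in NASH GFP livers. Gsta4 ranged from 36.7 to 49.6 CPM under the hairpin and from 35.8 to 61.9 CPM in NASH GFP livers, so both overlapped them.

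Gstm2 (chr3:107981702-107986453, minus strand) had the smallest p. It had 28.8, 29.2 and 30.6 CPM under the hairpin and 67.7, 76.4 and 70.4 CPM in scramble livers. The hairpin libraries lay within a narrow range, 2.43-fold below scramble (log2 fold change -1.28 ± 0.08, adjusted p = 6.27e-06). Gstm3 had 16.3, 29.5 and 19.98 CPM under the hairpin and 58.6, 105 and 86.9 CPM in scramble livers, 3.80-fold lower (log2 fold change -1.93 ± 0.23, adjusted p = 0.000311). Gstt3, a theta-class transferase, had 19.7, 15.8 and 19.9 CPM under the hairpin and 39.1, 30.3 and 34.2 CPM in scramble livers (log2 fold change -0.91 ± 0.12, adjusted p = 0.000623). It shared 20.2% of its 50-base stretches with the overlapping gene Gm20441. Gstt1 (-0.35 ± 0.07, adjusted p = 0.00526) and Gstt2 (-0.29 ± 0.09, adjusted p = 0.0318) had smaller log2 fold changes, as had the mitochondrial and peroxisomal Gstk1 (-0.36 ± 0.08, adjusted p = 0.0065), Gstp3 (-0.44 ± 0.14, adjusted p = 0.0427) and Mgst3 (-0.69 ± 0.20, adjusted p = 0.0275). Among the UGT genes Ugt1a5 had 31.6, 26.3 and 15.6 CPM under the hairpin and 52.8, 45.7 and 50.01 CPM in scramble livers (log2 fold change -1.02 ± 0.19, adjusted p = 0.00387). Scramble livers were above all 12 other libraries in Ugt1a5. Ugt1a6a, a glucuronosyltransferase of planar phenols, was lower too (-0.51 ± 0.15, adjusted p = 0.0335). Hairpin values overlapped those of NASH GFP livers in Gstt2, Gstt3, Gstp3, Ugt1a5, Ugt1a6a and Ugt2b34. They lay below every NASH GFP library in Gstm2, Gstm3, Gstt1, Gstk1 and Mgst3.

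Leaving out any 1 of the 6 libraries kept 7 of the higher calls (Gstp1, Gstp2, Sult2a8, Ugt2b35, Ugt2b37, Ugt2b38 and Ugt2b5) and 6 of the lower ones (Gstk1, Gstm2, Gstm3, Gstt1, Gstt3 and Ugt1a5). Without scramble replicate 3 the counts were 7 higher and 6 lower, and without scramble replicate 1 the count lower was 7. The highest adjusted p without a library was 0.0543 for Ugt2b1, 0.0563 for Ugt1a9, 0.0922 for Mgst3, 0.119 for Gstt2 and 0.148 for Ugt2b34, all without scramble replicate 3. It was 0.14 for Ugt2a3 and 0.145 for Gstp3 without scramble replicate 2, 0.117 for Ugt1a6a without scramble replicate 1, and 0.161 for Gsta4 without hairpin replicate 2. With all 15 libraries in the fit, 12 of the 22 calls remained. Sult2a8 (adjusted p = 0.139), Gstk1 (0.107) and Gstt1 (0.0661) were then among those not called.

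The diet and the hairpin comparison share no library, and their called members can be set side by side. Of the 12 members lower on the diet, 8 were higher under the hairpin: Gstp1, Sult2a8, Ugt2a3, Ugt2b1, Ugt2b5, Ugt2b35, Ugt2b37 and Ugt2b38. They were 66.7% of the members lower on the diet and 72.7% of those higher under the hairpin. Among all 14127 genes tested in both comparisons, 246 were lower on the diet and higher under the hairpin, which was 30.6% of the 803 genes lower on the diet and 13.7% of the 1793 higher under the hairpin. Mgst3 was higher on the diet and lower under the hairpin. No member was called in the same direction in both. In Ugt2b5 and Ugt2a3 the hairpin values overlapped those of NASH GFP livers. Scramble livers were below all 12 other libraries in Gstp1, Ugt2b5 and Ugt2b38. Ugt2b1 ranged from 465 to 654 CPM under the hairpin and from 951 to 1036 CPM in chow GFP livers, and 1 chow GFP library, at 7.48 CPM of Ugt2b37, lay within the hairpin range of that gene. Of the 7 hepatocyte markers, 3 were also lower on the diet and 3 higher under the hairpin, while 7 of 7 macrophage markers were higher on the diet and 6 of 7 lower under the hairpin. The part of these cell types in the pattern was not tested.

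**Figure D3:**
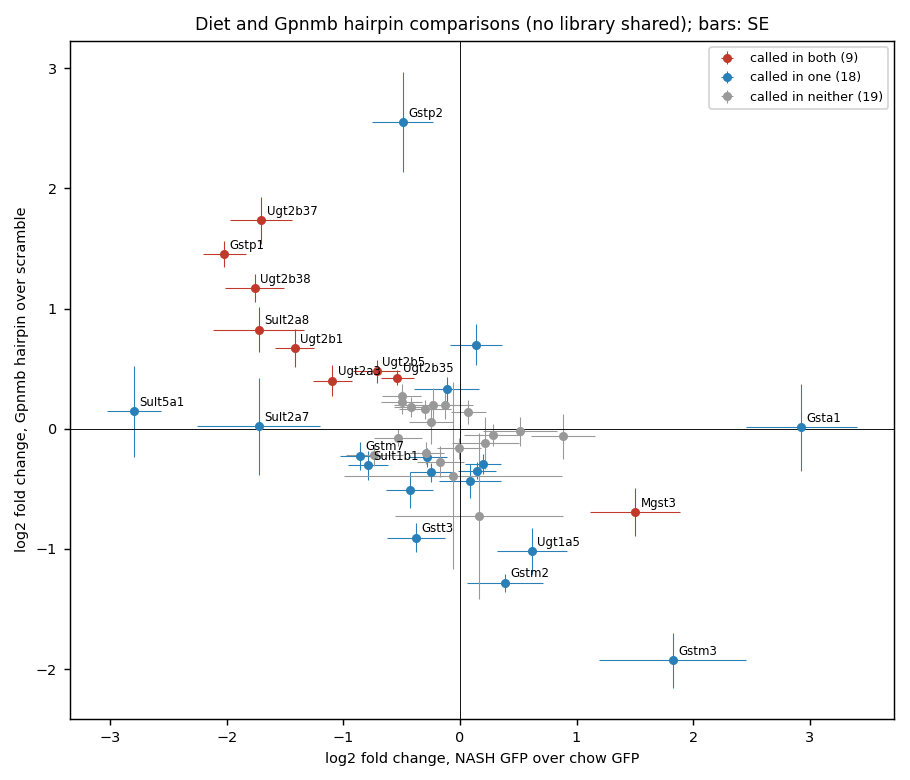
log2 fold change of 46 members on the NASH diet (horizontal, NASH GFP over chow GFP) and under the Gpnmb hairpin (vertical, hairpin over scramble), with SE bars; colour gives in how many of the 2 comparisons a member was called. Of 9 members called in both, 8 lie at the upper left (lower on the diet, higher under the hairpin) and Mgst3 lies at the lower right.

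Gstp1, Gstp2 and 5 Ugt2b genes were higher under the hairpin, and all but Gstp2 were lower on the diet. For Gstp1, Gstp2, Ugt2b5, Ugt2b35, Ugt2b37 and Ugt2b38, the 100 bases before the start site are shown, from the RefSeq promoter table (GRCm38.p6), where 43 of the 48 members matched by symbol. Capitals mark TGAGTCA, the consensus of the AP-1 transcription factors, and GTTATANTTTAAC, the longest run that these 4 Ugt2b genes share with at most 1 position differing. Both were chosen after the sequences had been seen. The promoters of Ugt2b1, Ugt2a3 and Sult2a8, also lower on the diet and higher under the hairpin, are not shown. They held neither run in the 250 bases before the start site.
Gstp1 (chr19:4037913-4038012, minus strand): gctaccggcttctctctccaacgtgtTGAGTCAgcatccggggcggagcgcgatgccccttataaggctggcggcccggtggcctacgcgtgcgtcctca
Gstp2 (chr19:4042222-4042321, minus strand): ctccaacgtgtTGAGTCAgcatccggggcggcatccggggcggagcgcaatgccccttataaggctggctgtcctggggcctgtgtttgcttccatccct
Ugt2b5 (chr5:87140341-87140440, minus strand): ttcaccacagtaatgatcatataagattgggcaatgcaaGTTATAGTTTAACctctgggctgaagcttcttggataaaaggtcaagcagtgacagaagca
Ugt2b35 (chr5:87000760-87000859, plus strand): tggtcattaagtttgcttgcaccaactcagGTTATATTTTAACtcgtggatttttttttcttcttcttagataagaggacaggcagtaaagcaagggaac
Ugt2b37 (chr5:87254789-87254888, minus strand): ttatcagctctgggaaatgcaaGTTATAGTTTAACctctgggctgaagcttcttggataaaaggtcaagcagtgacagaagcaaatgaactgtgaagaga
Ugt2b38 (chr5:87424204-87424303, minus strand): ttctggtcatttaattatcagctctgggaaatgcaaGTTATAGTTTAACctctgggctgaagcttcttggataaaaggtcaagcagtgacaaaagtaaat
Searched on both strands in the 250 bases before the start, GTTATANTTTAAC was found in 5 of the 43 members (11.6%), Ugt2b5, Ugt2b35, Ugt2b36, Ugt2b37 and Ugt2b38, and in 6 of 27025 genes in the table (0.0222%). The 4 genes it was taken from hold it by construction, so the members' count could not be lower than 4. TGAGTCA was found in 4 members (9.3%), Gstp1, Gstp2, Gstm5 and Ugt2b37, and in 5.16% of all genes. These genes are near copies of each other: the promoters of Ugt2b37 and Ugt2b38 were 94.9% identical over aligned bases, those of Ugt2b5 and Ugt2b38 88.3%, those of Ugt2b5 and Ugt2b35 77.8%, and those of Gstp1 and Gstp2 88.5%. Ugt2b36 holds the same letters, and it was called in neither comparison (log2 fold change -0.50 ± 0.18, adjusted p = 0.0832, on the diet, and 0.22 ± 0.10, adjusted p = 0.138, under the hairpin). Over the full 300-base windows, TGACNNNGC, 1 spelling of the antioxidant response element core, was found in 4 of 43 members (9.3%) and in 14.0% of all genes. The dioxin response element core GCGTG was found in 11 of 43 members (25.6%) and in 35.2% of all genes. TGACNNNGC was in the windows of Gsta3, Gstm5, Gstm7 and Mgst1. In Gstp1 and Gstp2 the marked TGAGTCA is followed by GC, and TGAGTCAGC has G where TGACNNNGC has C. That spelling was not searched, so the count does not show which members lack an antioxidant response element. The reverse complement of TGAGTCA begins with the same 4 letters as TGACNNNGC, so the motifs can overlap. A match describes the letters in the window and says nothing of binding.

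Activin A expression was compared with GFP on the NASH diet. Of 45 members tested, 7 were lower and 1 was higher under Activin A. Of all 14598 genes tested, 3.86% were called lower and 1.66% higher (5.52% in all), against 15.6% and 2.22% of the members. Their median log2 fold change was -0.06, against 0.00 over all genes tested. The lower members were 3 sulfotransferases (Sult1a1, Sult2a8 and Sult1c2), 3 UGT genes (Ugt1a9, Ugt1a5 and Ugt3a1) and Gsta1, and the higher one was Gstp1.

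Sult1a1 (chr7:126672865-126676432, minus strand) had 63.8, 62.7 and 67.5 CPM under Activin A and 169, 237 and 209 CPM in NASH GFP livers. The 3 Activin A libraries lay close together and below all 12 other libraries of the series, 3.17-fold below NASH GFP (log2 fold change -1.67 ± 0.13, adjusted p = 0.000399). Sult1a1 overlaps Sgf29 on the opposite strand. Ugt1a9 had 5.19, 5.65 and 4.47 CPM under Activin A and 35.9, 25.8 and 19.9 CPM in NASH GFP livers, 5.33-fold lower (log2 fold change -2.41 ± 0.22, adjusted p = 0.000706). It too was below all 12 other libraries. Its transcripts shared 61.8% of their 50-base stretches with Ugt1a10. Within the same locus Ugt1a5 was also called lower, Ugt1a7c was not called (log2 fold change -2.69 ± 0.68, adjusted p = 0.0525), and Ugt1a1 was not called. Ugt1a7c had 1.92, 1.35 and 7.96 CPM in NASH GFP livers. Without NASH GFP replicate 3 its log2 fold change was -1.50 ± 0.45 (adjusted p = 0.065). Ugt1a1 had 135, 121 and 120.0 CPM under Activin A and 90.1, 98.1 and 109 CPM in NASH GFP livers (log2 fold change 0.34 ± 0.11, adjusted p = 0.103).

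Sult2a8 had 66.4, 140.2 and 96.3 CPM under Activin A and 166, 259 and 607 CPM in NASH GFP livers (log2 fold change -1.77 ± 0.43, adjusted p = 0.0452; -1.07 ± 0.26, adjusted p = 0.0315 without NASH GFP replicate 3). Gsta1 had 3.93, 3.94 and 6.95 CPM under Activin A and 26.3, 16.8 and 8.23 CPM in NASH GFP livers (log2 fold change -1.80 ± 0.39, adjusted p = 0.0279; -2.13 ± 0.26, adjusted p = 0.000886 without NASH GFP replicate 3). Neither overlapped between the groups. Ugt3a1, which uses UDP-N-acetylglucosamine rather than UDP-glucuronic acid in human and mouse, had 50.6, 50.6 and 47.6 CPM under Activin A and 62.9, 72.8 and 75.0 CPM in NASH GFP livers (log2 fold change -0.50 ± 0.10, adjusted p = 0.0196). Ugt1a5 had 9.50, 14.1 and 11.1 CPM under Activin A and 32.7, 15.5 and 25.0 CPM in NASH GFP livers (log2 fold change -1.08 ± 0.25, adjusted p = 0.0394). Sult1c2 was lower at a low level (-1.14 ± 0.28, adjusted p = 0.0455). Gstp1 had 571, 557 and 586 CPM under Activin A and 402, 428 and 372 CPM in NASH GFP livers, 1.42-fold higher (log2 fold change 0.51 ± 0.10, adjusted p = 0.0177).

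Across the 15 libraries, the Activin A livers lay below all 12 other libraries in 6 of 46 members (Sult1a1, Sult1b1, Sult1c2, Sult2a8, Ugt1a9 and Ugt3a1; 13.0%, against 1.72% of 15665 genes). Sult1b1 was not called in the Activin A comparison (log2 fold change -0.48 ± 0.12, adjusted p = 0.0549). With any 1 of the 3 Activin A libraries left out, only Sult1a1 and Ugt1a9 were called lower and none higher. The count lower was 4 without NASH GFP replicate 2. Without NASH GFP replicate 3, 8 members were lower, with Gsta2 (-1.14 ± 0.14, adjusted p = 0.000917) and Gstm3 (-1.74 ± 0.14, adjusted p = 6.52e-05) among them, and 2 were higher, Gstp1 and Ugt1a1 (0.42 ± 0.10, adjusted p = 0.0231). Over all genes in that fit, 900 of 15016 were lower and 535 higher, against 564 and 242 of 14598 with every library. The highest adjusted p without a library was 0.112 for Gstp1, 0.119 for Ugt3a1 and 0.181 for Sult1c2 (without Activin A replicate 3), and 0.136 for Gsta1, 0.169 for Ugt1a5 and 0.185 for Sult2a8 (without Activin A replicate 1). The diet and the Activin A comparison share the NASH GFP libraries. Gstp1 was lower on the diet and higher under Activin A, Gsta1 was higher on the diet and lower under Activin A, and Sult2a8 was lower in both.

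**Figure D4:**
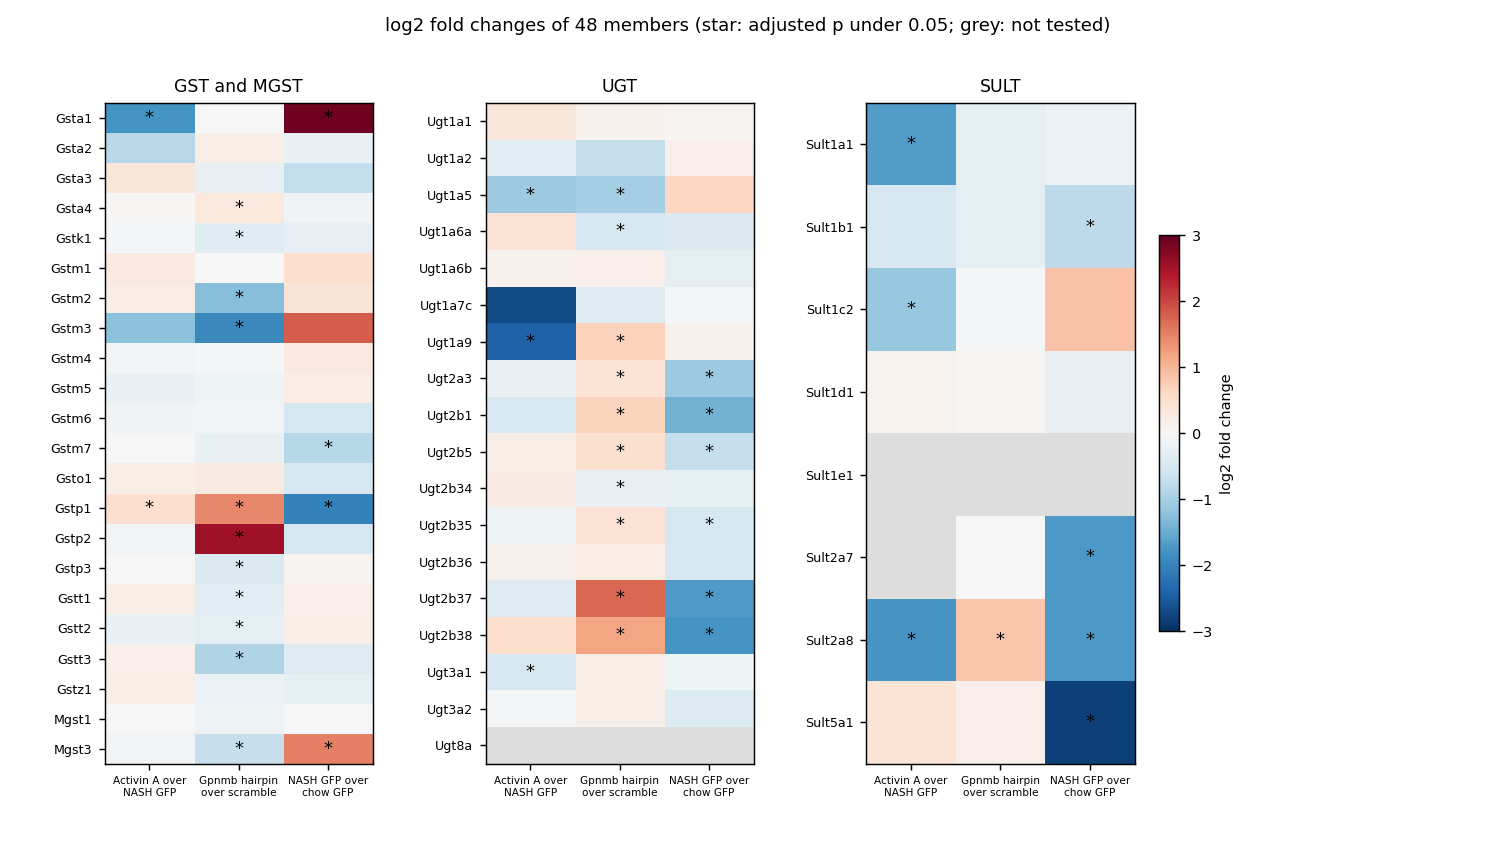
log2 fold change of the 48 members in the Activin A, Gpnmb hairpin and diet comparisons (columns), by family (panels); red is higher and blue lower in Activin A, hairpin or NASH GFP livers, a star marks an adjusted p under 0.05 and grey a gene not tested. Stars stand on 8 members under Activin A, 22 under the hairpin and 14 on the diet, with the Ugt2 cluster mostly blue on the diet and red under the hairpin.

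Scramble and GFP livers, both on the NASH diet, carried different AAV8 vectors. Of 47 members tested, edgeR's quasi-likelihood test with Benjamini-Hochberg adjustment called 0 (0.324% of 15103 genes were called), with 16 at an unadjusted p under 0.05. DESeq2 called 3 higher and 7 lower (735 of the 15103 genes) and limma-voom called 0 (45 of the genes). The smallest adjusted p were those of Gstp2 (log2 fold change -1.81 ± 0.33, adjusted p = 0.0622) and Gsta1 (-2.02 ± 0.38, adjusted p = 0.066). Without NASH GFP replicate 3, 5 members were called higher and 13 lower, with Gsta1 (-2.35 ± 0.24, adjusted p = 0.00171), Gsta2 (-1.59 ± 0.13, adjusted p = 0.000689) and Gstm3 (-1.99 ± 0.22, adjusted p = 0.00203) among the lower. Calls rose over all genes too in that fit, to 998 higher and 1036 lower of 15510. When NASH GFP replicate 1 was left out, 1 member was called higher (Ugt1a5), with 53 of 15516 genes called.

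Over all 5 groups together, 36 of 46 members differed somewhere (78.3%, against 44.9% of 15665 genes). Without any 1 library the count lay between 33 and 40. Of these, 8 were called in none of the 2-group comparisons: Gsta2, Gsta3, Gstm6, Gsto1, Gstz1, Ugt1a1, Ugt2b36 and Ugt3a2. In all, 18 of the 48 members were called in none of the 2-group comparisons. Beside these 8 they were Gstm1, Gstm4, Gstm5, Mgst1, Sult1d1, Sult1e1, Ugt1a2, Ugt1a6b, Ugt1a7c and Ugt8a. Among the 16 that were tested, log2 fold changes lay between -0.73 and 0.52 on the diet, between -0.73 and 0.27 under the hairpin and between -2.69 and 0.35 under Activin A. The lowest, Ugt1a7c under Activin A, had an adjusted p of 0.0525, and its log2 fold change was -1.50 without NASH GFP replicate 3. Chow GFP livers lay above all 12 NASH libraries in 14 members (30.4%, against 6.83% of genes), among them Gsta3 and Ugt3a2, and below all 12 in 0 members (6.71% of genes). Hairpin livers lay below all 12 others in Gstk1, Gstm2 and Gstm3 (6.52%, against 2.52% of genes). Scramble livers lay above all 12 others in Gstt2 and Ugt1a5 (4.35%, against 1.65% of genes) and below them in Gstp1, Gstp2, Ugt2b5 and Ugt2b38 (8.7%, against 2.42%). NASH GFP livers lay above all 12 others in Gsta1 (2.17%, against 1.22%) and below them in 0 members (0.479%). No member was highest in all 3 Activin A libraries (2.36% of genes) or in all 3 hairpin libraries (3.61%).

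The Activin A effect and the hairpin effect share no library, and their difference was tested directly. It was called in 11 of 46 members (23.9%, against 4.04% of 15665 genes), above 0 in 2 and below 0 in 9 (background 1.90% and 2.14%), and in 7 to 13 when 1 library was left out. Without Activin A replicate 3, scramble replicate 2 or hairpin replicate 3 it was 7. The difference, as the Activin A effect minus the hairpin effect, was below 0 for 9 members, the largest in size being Ugt1a9 (log2 difference -3.12 ± 0.30, adjusted p = 2.25e-05), Gstp2 (-2.63 ± 0.49, adjusted p = 0.0052) and Sult2a8 (-2.60 ± 0.50, adjusted p = 0.00663). It was above 0 for Gstm2 (1.49 ± 0.36, adjusted p = 0.0238) and Ugt1a6a (0.94 ± 0.25, adjusted p = 0.0455). Without NASH GFP replicate 3 the difference was -3.30 ± 0.28 for Ugt1a9, -2.56 ± 0.52 for Gstp2, -1.90 ± 0.36 for Sult2a8 and 1.14 ± 0.17 for Gstm2. Gsta1 (-2.14 ± 0.56, adjusted p = 0.0432) and Gsta2 (-1.34 ± 0.33, adjusted p = 0.0297) were then also called below 0. In that fit Gsta1 and Ugt2b37 (-2.03 ± 0.37) were larger in size than Sult2a8. When 1 of the 15 libraries was left out, the call of Ugt1a6a was lost in 11 cases (adjusted p up to 0.133, without Activin A replicate 1), that of Gstm2 in 6 (up to 0.0629, without scramble replicate 2), that of Ugt2b35 in 6 (up to 0.0789, without scramble replicate 3) and that of Ugt3a1 in 5 (up to 0.0758, without scramble replicate 2). The calls of Gstp1, Gstp2, Sult1a1, Sult2a8, Ugt1a9, Ugt2b1 and Ugt2b37 held whichever library was left out. No member was called above 0 without Activin A replicate 2 or 3, scramble replicate 2 or 3, or hairpin replicate 2 or 3.

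The genes that feed and follow conjugation were taken from 6 lists, and their values are log2 fold changes ± SE. Of all genes tested, 11.2% were higher and 5.82% lower on the diet. Under the hairpin 12.2% were higher and 12.0% lower, and under Activin A 1.66% and 3.86%. Several counts below lie near these shares, such as those of regulators higher on the diet and under the hairpin. Of 21 other conjugation and hydrolysis enzymes tested, 8 were lower and 2 higher on the diet, with a median of -0.44. The lowest p were those of the carboxylesterases Ces2a (-2.09 ± 0.21) and Ces3a (-1.19 ± 0.19) and of Gnmt, the glycine methyltransferase (-1.58 ± 0.19). Under the hairpin 5 of these 21 were higher and 4 lower, among them Nqo1, a quinone reductase (-1.10 ± 0.13), Ephx2, an epoxide hydrolase (0.52 ± 0.09), and Tpmt, a thiopurine methyltransferase (-0.41 ± 0.08). Under Activin A 1 was higher, Ces1d (0.83 ± 0.13).

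Of 12 efflux and uptake transporters, 5 were higher and 1 was lower on the diet. The exporters Abcc1 (1.72 ± 0.29), Abcb1a (2.49 ± 0.43) and Abcc4 (2.58 ± 0.50) had the lowest p. The uptake transporter Slco1a1 was lower on the diet (-1.86 ± 0.49), the single transporter lower under Activin A (-2.72 ± 0.52), and higher under the hairpin (1.81 ± 0.19). Under the hairpin 3 transporters were higher and 3 lower, with Abcg2 (0.53 ± 0.09) and Abcb4 (0.29 ± 0.07) also higher.

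Glutathione, UDP-glucuronic acid and PAPS are the donors of the 3 reactions. Of 13 glutathione genes, 1 was higher and 1 lower on the diet (Dpep1 1.83 ± 0.42, Chac2 -0.84 ± 0.19), 1 was higher under Activin A (Chac1, which degrades glutathione, 1.52 ± 0.33), and 2 were higher and 3 lower under the hairpin (Gpx4 -0.51 ± 0.08, Anpep -0.26 ± 0.06 and Chac1 1.47 ± 0.40 with the smallest p). Of 10 genes listed around the supply and hydrolysis of UDP-glucuronic acid, 1 was higher on the diet (Pgm1 1.33 ± 0.25) and 1 under Activin A (Gys2 0.71 ± 0.12). Under the hairpin 1 was higher (Slc35a3 0.30 ± 0.09) and 1 lower (Pgm1 -0.63 ± 0.19). That list also held genes of other uses of UDP-sugars, Gys2 and Slc35a3 among them. Of 12 genes of sulfate and PAPS, 2 were higher on the diet (Arsa 0.72 ± 0.15, Slc13a4 1.77 ± 0.49) and 1 under Activin A. That gene was Slc13a4, a sulfate transporter, at a log2 fold change of 3.87 ± 0.22. Under the hairpin 4 were lower, among them Slc26a2 (-0.67 ± 0.17), Slc13a4 (-1.42 ± 0.37) and Slc26a1 (-0.30 ± 0.08).

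Of 22 regulators tested on the diet, 2 were higher (Maff 1.49 ± 0.25, Srebf1 0.85 ± 0.25) and 1 was lower, the growth hormone receptor Ghr (-0.59 ± 0.15). Under Activin A 3 were higher, with Esr1 (1.17 ± 0.17), the receptor CAR gene Nr1i3 (0.73 ± 0.13) and Srebf1 (1.19 ± 0.24), and 1 was lower. Of 23 tested under the hairpin, 3 were higher and 5 lower. The smallest p were those of Hnf4a (0.78 ± 0.09), Cebpa (-0.47 ± 0.07) and Ppara (0.35 ± 0.06).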

How the data were processed

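Liver RNA of 15 mouse libraries was extracted with the RNeasy mini plus kit and prepared with the TruSeq stranded mRNA kit, per the labels' protocols. The genome build was GRCm38 (mm10), per the submitters' processing notes. No label or header names the aligner, the counting tool, its strand setting or the annotation release. The authors deposited 3 tables of raw counts per gene with gene lengths, per the file headers. The 42 columns of normalized values, FPKM and group means were not used. The 3 tables were joined, and a gene missing from a table (2168 to 2877 genes) was set to a count of 0 there.

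Members and gene lists were chosen with earlier results of these data known. Counts were tested with edgeR 4.0.16 (R 4.3.3) by the quasi-likelihood test, with TMM scaling, filterByExpr at a minimum count of 10 and Benjamini-Hochberg adjustment over all genes tested; a call is an adjusted p under 0.05. Each 2-group comparison used its 6 libraries. The difference of effects and the 5-group test used all 15. The scripts were tested on simulated data with known changes. Levels are CPM with TMM factors of all 15 libraries, divided by length in kb where genes are compared. Alternatives were DESeq2 1.42.0, limma-voom (limma 3.58.1), DESeq2 size factors, library size alone, no low-count filter, members with at least 1 CPM, a replicate block, all 15 libraries in the fit, and each library left out. Replicates differed by more than sampling noise (chi-square per degree of freedom of 5.54 or more).

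Named with values are the called members, the 6 with the smallest p in each comparison in every library, the 10 highest per kb in chow GFP livers, members called in the difference of effects, members called in opposite directions, and at most 3 called genes of each list. Gstm3 and Slco1a1 on the diet, Sult1b1 under Activin A, Ugt1a1, Ugt1a7c and Ugt2b36 were named after their values were seen. Promoters came from the RefSeq table and were compared with Biopython 1.88. Protein identity was not analysed here.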

Additional observations from a re-analysis of the deposited data

Results flagged for a closer look

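The Activin A effect (over NASH GFP) and the Gpnmb hairpin effect (over scramble) differed in 11 members by the direct test of the difference, in edgeR's quasi-likelihood test with Benjamini-Hochberg adjustment over all genes. All values are the Activin A effect minus the hairpin effect on the log2 scale, with SE. Of the UGT genes, Ugt1a9 (-3.12 ± 0.30, adjusted p = 2.25e-05) was lower under Activin A and higher under the hairpin. Ugt2b37 (-2.12 ± 0.35, adjusted p = 0.00207), Ugt2b1 (-1.13 ± 0.23, adjusted p = 0.00817) and Ugt2b35 (-0.57 ± 0.13, adjusted p = 0.0218) were called higher under the hairpin and were not called under Activin A. Ugt3a1 (-0.70 ± 0.17, adjusted p = 0.022) was called lower under Activin A alone, and Ugt1a6a (0.94 ± 0.25, adjusted p = 0.0455) lower under the hairpin alone. Of the SULT genes, Sult2a8 (-2.60 ± 0.50, adjusted p = 0.00663) was lower under Activin A and higher under the hairpin, and Sult1a1 (-1.39 ± 0.25, adjusted p = 0.00365) was lower under Activin A. Of the GST genes, Gstp1 (-0.95 ± 0.19, adjusted p = 0.00894) was higher in both comparisons, with the larger log2 fold change under the hairpin. Its 2 controls had unlike levels: the mean was 286 CPM in scramble livers, below the other 12 libraries, and 401 CPM in NASH GFP livers. It was 785 CPM under the hairpin and 571 CPM under Activin A. Gstp2 (-2.63 ± 0.49, adjusted p = 0.0052) was called higher under the hairpin, where scramble livers were below the other 12 libraries, and Gstm2 (1.49 ± 0.36, adjusted p = 0.0238) was called lower under the hairpin. Leaving out 1 library gave between 7 and 13 called members: 7 without Activin A replicate 3, scramble replicate 2 or hairpin replicate 3, and 13 without NASH GFP replicate 3, chow GFP replicate 1 or chow GFP replicate 3. The calls of Ugt1a6a (lost in 11 of 15 such fits), Gstm2 (6), Ugt2b35 (6) and Ugt3a1 (5) depended on single libraries, with adjusted p up to 0.133, 0.0629, 0.0789 and 0.0758. Without NASH GFP replicate 3 the difference was -1.90 ± 0.36 for Sult2a8 and 1.14 ± 0.17 for Gstm2, and Gsta1 and Gsta2 were also called below 0. The hairpin effect of Sult2a8 was not called with all 15 libraries in the fit (adjusted p = 0.139).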

How the results depend on the processing

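No result turned its direction. For 55 single results of named members, 339 of 374 values under alternatives other than leaving out a library kept direction and call and 35 lost the call; when a library was left out, 322 of 429 kept it and 107 lost it. With library size alone, 4 members were higher on the diet and 17 lower under the hairpin. With all 15 libraries in the fit, 4 were higher on the diet, 4 lower under the hairpin and 3 lower in scramble against GFP livers. Limma-voom called 3 lower under Activin A. In scramble against GFP livers DESeq2 called 3 higher and 7 lower, and no low-count filter gave 3 higher and 5 lower. Replicate numbers did not pair the samples (correlations of same-numbered deviations between -0.197 and 0.0931); with a replicate block 1 member was higher on the diet, 0 higher and 4 lower under Activin A, and 1 higher in scramble against GFP livers. Leaving out 1 library gave 1 to 5 higher and 7 to 11 lower on the diet, 0 to 2 higher and 2 to 8 lower under Activin A, 7 to 11 higher and 6 to 11 lower under the hairpin, 0 to 5 higher and 0 to 13 lower in scramble against GFP livers, 33 to 40 over the 5 groups and 7 to 13 for the difference of effects. Over all genes, calls on the diet numbered 2445, against 4500 with all 15 libraries, 1597 with the block and 2925 with DESeq2; under Activin A 806, against 1258 with DESeq2 and 1253 with no low-count filter; under the hairpin 3601, against 1880 with all 15 libraries; in scramble against GFP livers 49, against 735 with DESeq2, 576 with no low-count filter, 116 with all 15 libraries and 23 with library size alone; for the difference of effects 633, against 984 with DESeq2. Without NASH GFP replicate 3, calls over all genes numbered 2034 in scramble against GFP livers and 1435 under Activin A. The causes were not tested. Sult1e1 and Ugt8a were too low for most tests, and reads of near copies limit Gsta1, Gsta2, Gstm3, Gstp1, Gstp2, the Ugt1a genes, Ugt2b5, Ugt2b37 and Ugt2b38, among others.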
